A study of Homo sapiens with 18 samples.

Results

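Actin cytoskeleton and contractility genes were examined as a set of 43 genes, chosen by name from what their proteins do, among the 58302 genes listed in each table of RNA levels. The set was chosen with earlier results of these data known, so its counts beside those of all genes are not an independent test. All 43 were found in the tables. The set holds 2 actins, 7 members of the ARP2/3 complex, 5 cofilins and profilins, 4 tropomyosins, 6 myosin chains, 6 transgelins, calponins and caldesmon, 7 crosslinkers and adhesion proteins, 2 membrane linkers and 4 genes of the ROCK pathway. RNA was sequenced from 3 human lung cancer cell lines, of which EBC-1 has MET amplification, while HCC827 and PC-9 carry an EGFR exon 19 deletion. In each line, cells carrying an shRNA against the tyrosine kinase SYK (shSYK) were compared with cells given the matching negative control (nc). Each of the 6 groups had 3 libraries. Both kinds of cells had been transduced by lentivirus, a single shRNA clone was used against SYK, and no drug is named in the labels of these libraries. The labels do not say that the 3 libraries of a group came from separate cultures, so the tests measure the spread between libraries, which may be technical. The comparison asked which genes of the actin machinery differed in level once SYK was depleted, and whether the 3 lines gave the same answer.

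Actin monomers assemble into filaments whose growth, branching and turnover are set by partner proteins. Profilins deliver monomers, the ARP2/3 complex starts branches, and cofilins and destrin sever and disassemble old filaments. Tropomyosins coat filaments and decide which myosins and other proteins can bind them, nonmuscle myosin 2 pulls on them, and crosslinkers such as filamin, the actinins and fascin join them into networks or bundles. RhoA and its kinases ROCK1 and ROCK2 turn on myosin contraction, and serum response factor (SRF) with the coactivators MKL1 and MKL2 drives transcription of many actin genes. In epithelial cancer cells this machinery shapes cell junctions, spreading and movement.

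Levels are FPKM, fragments scaled to the length of the gene and to the depth of the library. The libraries held 7920099 to 15729103 reads on genes. SYK itself was lower in all 3 shSYK libraries than in any nc library of each line, at 32.1% of the nc mean in PC-9, 32.9% in HCC827 and 52.3% in EBC-1. All 5 epithelial markers examined were well expressed in every group, with summed levels of 1137 to 4683 FPKM per library. For CDH1, the cadherin of epithelial junctions, no shSYK library reached the lowest nc library of its line, with 73.7% of the nc mean in HCC827, 81.2% in EBC-1 and 81.7% in PC-9. KRT19 was likewise lower in EBC-1 (81.5%) and HCC827 (74.1%) and KRT18 in EBC-1 (80.6%), while EPCAM was higher without overlap in EBC-1 (117.2%) and PC-9 (118.4%). The part of these shifts in the results below was not tested. Of 5 smooth muscle markers, DES, MYH11, ACTG2 and LMOD1 had a mean under 1 FPKM in every group, and the whole list summed to 0.59 to 7.78 FPKM. The 6 fibroblast markers summed to 0.958 to 8.37 FPKM, with COL3A1, DCN and LUM at or near 0. The 6 leukocyte and endothelial markers summed to at most 0.288 FPKM in EBC-1 and HCC827, but to 15.2 to 17.2 FPKM in the nc libraries of PC-9 and 6.82 to 7.92 FPKM in its shSYK libraries. PECAM1 and CDH5 made up most of that sum in PC-9, with means of 13.4 and 2.42 FPKM in nc and 4.98 and 2.38 FPKM in shSYK cells, while PTPRC, CD3E and CD68 were at or near 0 in every group. The part of that shift in the PC-9 results was not tested.

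The PC-9 nc libraries stood apart from one another. Among the 39 genes of the set tested in PC-9, 14 had a highest nc level more than 1.5 times the lowest, against 3 of 41 in EBC-1 and 2 of 42 in HCC827, and none did among the PC-9 shSYK libraries. For 23 of the 39 genes, nc library 1 was the highest of the nc libraries and nc library 2 the lowest, and for 7 genes the order was the opposite. ACTB was at 1726, 1080.5 and 1286 FPKM in PC-9 nc libraries 1, 2 and 3, while ROCK2 was at 1.48, 5.71 and 3.20 FPKM in the same libraries. Results for PC-9 are therefore also given with each library left out.

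The set is dominated by a few abundant genes. In nc cells it took 2.69% ± 0.042 of all reads in HCC827, 2.35% ± 0.205 in PC-9 and 2.33% ± 0.091 in EBC-1 (SD, n = 3). In EBC-1 nc cells, the nonmuscle actins ACTB (1060.2 ± 75.7 FPKM) and ACTG1 (995.7 ± 48.4) led, and their libraries overlapped in level. The filament crosslinker FLNA (602.7 ± 43.8) and the monomer carrier PFN1 (522.0 ± 46.6) followed. In HCC827 the order of the actins was turned round, with ACTG1 at 2256 ± 53.8 FPKM above ACTB at 1629.7 ± 86.5 in all 3 nc libraries. At the other end, CNN1, the calponin of smooth muscle, had 0 to 3 reads in every library, at or under the floor of 3 reads. The nonmuscle myosin heavy chain MYH10 was at 0.150 ± 0.077 FPKM in PC-9 nc cells, against 8.68 ± 0.212 in EBC-1 and 14.9 ± 0.610 in HCC827. FLNA ranked 3 of 43 in EBC-1 nc cells and 12 of 43 in PC-9 nc cells. The tables of the 3 lines were made separately, so these levels are set side by side and were not tested between lines.

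The start regions of the set were searched for the CArG box, the sequence bound by SRF, since SRF is the best known common regulator of actin genes. RefSeq promoter windows (GRCh38.p14, 250 bases before to 50 after a transcript start) were matched for 37 of the 43 genes, with 62 windows in all. ACTB, ARPC1B, FSCN1, MYL9, PFN2 and TAGLN had no entry. A CArG box was found in 6 windows, belonging to 6 genes, which is 9.68% of these windows, against 453 of 34943 windows (1.30%) over all genes. The motif reads the same on both strands. The stretches below hold the box in capitals with 30 bases on each side, 5′ to 3′ on the strand of the gene. They are shown because 5 of these 6 genes differed between nc and shSYK cells of EBC-1 in the tests that follow. There 20 of 41 tested genes of the set and 5562 of 12430 genes in all differed as well. The differences of ACTG1, ACTN1 and ROCK2 did not hold under every alternative given below. None of the stretches overlapped an annotated exon except the FLNA stretch, which overlapped an exon of ENSG00000285018 on the opposite strand. A match describes the letters and is not evidence of binding.
ACTG1, chr17:81512854-81512923, minus strand: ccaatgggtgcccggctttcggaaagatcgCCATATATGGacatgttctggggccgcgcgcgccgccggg
ACTN1, chr14:68977698-68977767, minus strand: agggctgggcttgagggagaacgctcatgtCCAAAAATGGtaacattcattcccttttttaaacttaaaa
CNN2, chr19:1026489-1026558, plus strand: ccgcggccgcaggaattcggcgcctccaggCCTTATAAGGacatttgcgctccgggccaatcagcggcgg
FLNA, chrX:154374689-154374758, minus strand: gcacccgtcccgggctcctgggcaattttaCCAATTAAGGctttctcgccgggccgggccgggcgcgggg
ROCK2, chr2:11345471-11345540, minus strand: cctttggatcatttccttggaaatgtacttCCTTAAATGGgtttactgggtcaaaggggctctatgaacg
TPM4, chr19:16067335-16067404, plus strand: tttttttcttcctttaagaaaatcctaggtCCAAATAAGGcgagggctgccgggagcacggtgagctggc

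Genes with a mean of at least 1 FPKM over the 6 libraries of a line were tested with limma on log2(FPKM + 1), and a Benjamini-Hochberg adjusted p under 0.05, adjusted over all genes tested in the line, counted as a change. Log2 fold changes are on this log2(FPKM + 1) scale, which understates the changes of low genes. In HCC827, 19 of 42 tested genes of the set rose and 4 fell, or 45.2% and 9.52%, against 17.2% and 20.7% of all genes tested. The median difference of the set was 0.18 on the log2 scale, beside -0.0053 over all genes. With the filter at a mean of 5 FPKM, 18 of 37 rose, beside 1346 of 6822 genes in all. In EBC-1, 11 of 41 tested genes rose and 9 fell, or 26.8% and 22.0%, which is near the 23.1% and 21.6% over all genes. In PC-9, CFL2 alone rose and TPM4 alone fell among 39 tested, against 0.678% and 1.41% of all genes. The median difference of the set in PC-9 was 0.13, beside 0.0088 over all genes, with 32 genes higher and 7 lower. That count rests on PC-9 nc library 2, without which 21 were higher and 18 lower. The median of the set was then 0.12, beside -0.021 over all genes. How all genes split into higher and lower was not counted. At an unadjusted limma p under 0.05, 8 of the 39 genes passed in PC-9, beside 15.6% of all genes. With voom on the recovered reads 3 rose and 1 fell after adjustment, beside 0.993% and 2.98% of all genes.

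**Figure D1:**
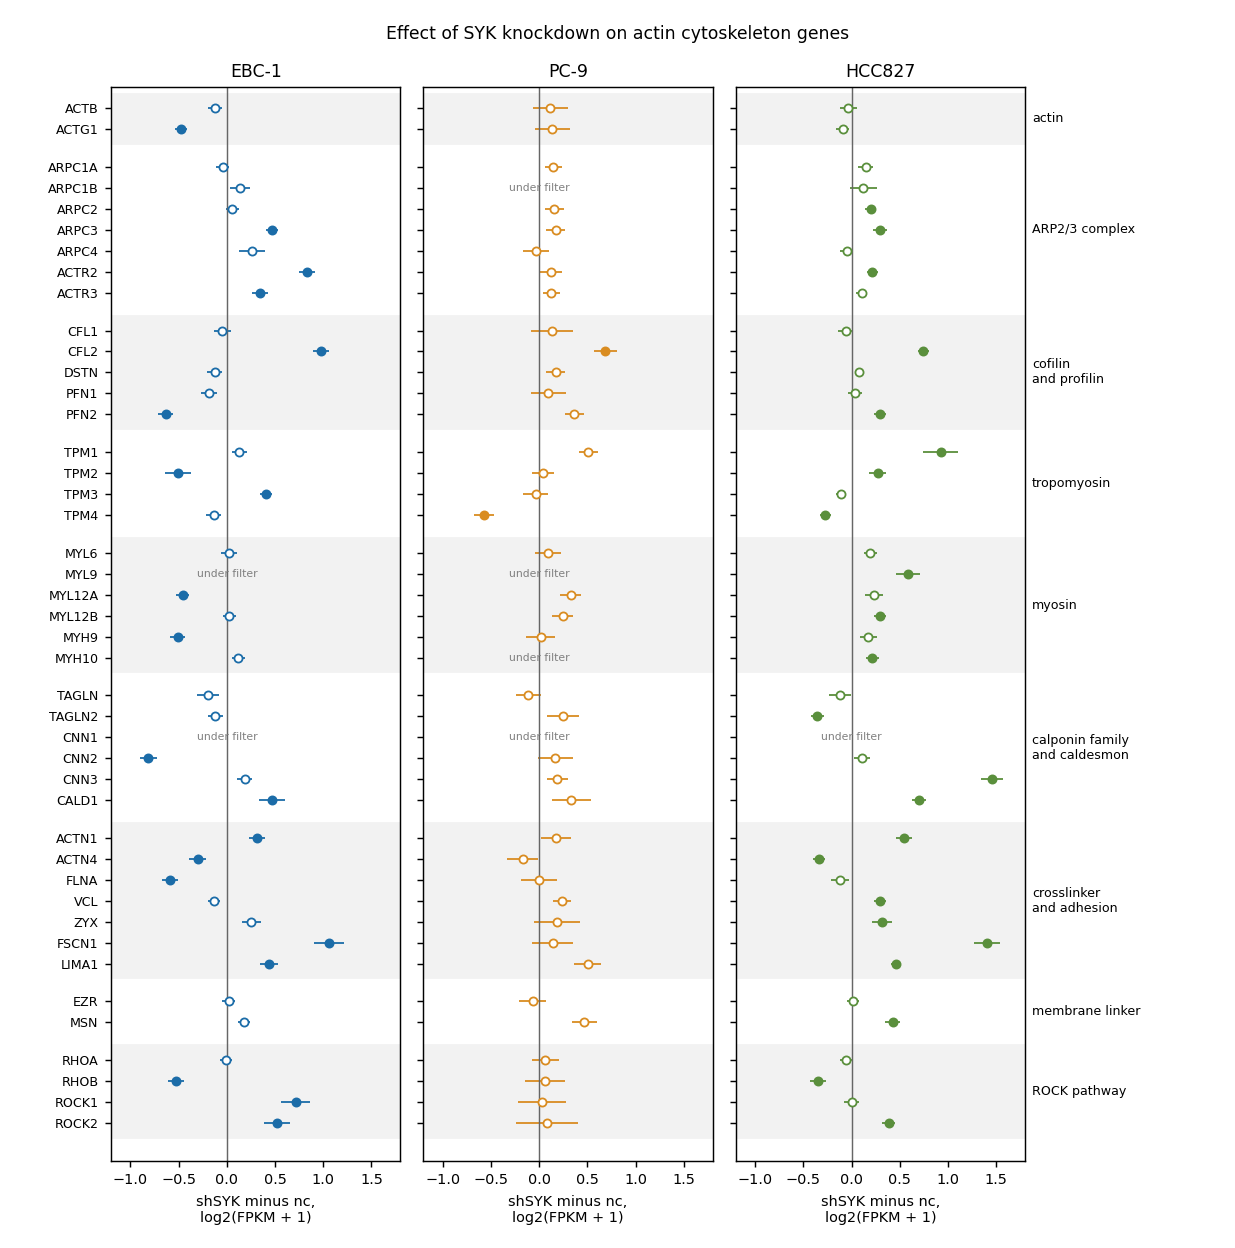
Difference between shSYK and nc cells for the 43 genes, grouped by role, in EBC-1, PC-9 and HCC827 (x axis, log2(FPKM + 1); points, limma estimate; bars, SE; filled points, adjusted p under 0.05; genes under 1 FPKM are marked). Filled points lie on both sides of 0 in EBC-1 (11 right, 9 left), mostly to the right in HCC827 (19 right, 4 left), and number 2 in PC-9.

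In EBC-1 the result depended on the scaling. Rescaling each library to a common FPKM total moved the median of all genes in EBC-1 to 0.12 on the log2 scale, and the split of the set became 17 up and 8 down. With voom on the recovered reads it was 17 up and 9 down, and with quantile normalization 14 up and 7 down. The directions given below for genes past the threshold held under each of these scalings, except for ACTG1 in EBC-1 (below). Over the 21, 37 and 19 genes not past the threshold in EBC-1, PC-9 and HCC827, log2 differences ran from -0.20 to 0.26, -0.17 to 0.51 and -0.12 to 0.23.

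Among the actins, the only call was a fall of ACTG1 in EBC-1. ACTG1, which encodes gamma actin, was at 998.0, 946.3 and 1043 FPKM in the nc libraries of EBC-1 and at 705.6, 746.1 and 692.8 in its shSYK libraries. The groups did not overlap, and the level fell by 0.48 on the log2 scale (SE 0.065, limma adjusted p = 0.00139), but under quantile normalization the difference was 0.058 (limma adjusted p = 0.304). The EBC-1 effect of ACTG1 did not differ past the threshold from that in HCC827 (difference -0.39, SE 0.174, limma adjusted p = 0.128). ACTB, which encodes beta actin, overlapped between groups in all 3 lines. As a share of both actins, ACTB made up 51.5% ± 0.872 of the FPKM in EBC-1 nc cells and 57.6% ± 0.296 in shSYK cells, with no overlap, a share that does not depend on the scaling of a library. In PC-9 and HCC827 the shares overlapped between groups.

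The ARP2/3 complex, which nucleates branched filaments, showed rises and no falls among its 7 members in the set. In EBC-1, ACTR2, ACTR3 and ARPC3 rose, or 3 of 7, where 23.1% of all genes rose and 21.6% fell. In HCC827, ACTR2, ARPC2 and ARPC3 rose, also 3 of 7, where 17.2% of all genes rose and 20.7% fell. In PC-9 none of 6 tested passed, with log2 differences of -0.035 to 0.17, where 0.678% of all genes rose and 1.41% fell. ACTR2, the subunit that carries the name Arp2, was at 20.6, 22.9 and 19.3 FPKM in EBC-1 nc cells and at 36.5, 37.0 and 40.9 in shSYK cells, a 1.82-fold difference (0.84 on the log2 scale, SE 0.083, limma adjusted p = 0.000431). In HCC827 it went from 69.8, 70.2 and 75.3 to 85.9, 81.3 and 83.6 FPKM, 1.16-fold (0.22, SE 0.054, limma adjusted p = 0.0170). The groups were apart in both lines, and the EBC-1 effect exceeded the HCC827 effect by 0.62 (SE 0.115, limma adjusted p = 0.00120) and the PC-9 effect by 0.71 (SE 0.115, limma adjusted p = 0.000523). ARPC3 rose 1.39-fold in EBC-1 and 1.23-fold in HCC827, ACTR3 rose 1.31-fold in EBC-1, and ARPC2 rose 1.15-fold in HCC827. Once trends with gene length and GC content were removed, the ACTR3 difference in EBC-1 was -0.067, and none of the calls in HCC827 was left, with 0.091 for ACTR2 (limma adjusted p = 0.214), 0.12 for ARPC2 (limma adjusted p = 0.104) and 0.18 for ARPC3 (limma adjusted p = 0.0813). In HCC827 the ACTR2 call was also lost without nc library 1 (0.20, limma adjusted p = 0.0697) or shSYK library 3 (0.22, limma adjusted p = 0.0521), and the ARPC2 call without nc library 1 (0.18, limma adjusted p = 0.0896), nc library 2 (0.20, limma adjusted p = 0.0521) or shSYK library 2 (0.16, limma adjusted p = 0.0805).

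A further subunit of the complex, ARPC5, moved the other way and belonged to the regulator list rather than the set. ARPC5 was at 21.6, 19.5 and 21.7 FPKM in PC-9 nc cells and at 10.2, 10.5 and 10.6 in shSYK cells. In HCC827 it went from 13.1, 13.9 and 13.6 to 5.65, 5.48 and 5.13 FPKM, and in EBC-1 from 7.56, 8.08 and 7.22 to 5.12, 5.63 and 5.83. The shSYK libraries were below every nc library in all 3 lines, and ARPC5 fell by 0.93 (SE 0.093, limma adjusted p = 0.00733), 1.18 (SE 0.058, limma adjusted p = 6.17e-05) and 0.40 (SE 0.076, limma adjusted p = 0.00494) on the log2 scale in PC-9, HCC827 and EBC-1. The PC-9 call was lost without nc library 3 or any one shSYK library (log2 differences -0.91 to -0.94, limma adjusted p 0.0775 to 0.0827). Its paralog ARPC5L was at 22.8 ± 1.38 FPKM in EBC-1 nc cells and rose to 34.1 ± 1.44 (0.56, limma adjusted p = 0.00102), while in PC-9 and HCC827 its groups overlapped.

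Among the cofilins and profilins, CFL2 was the member that rose in every line. CFL2 (ENSG00000165410, chromosome 14, 34706769 to 34714823 in the GRCh38 coordinates of the tables) encodes the cofilin best known from muscle, while CFL1 is the nonmuscle form. In EBC-1, CFL2 was at 5.29, 5.58 and 5.05 FPKM in nc and 10.4, 11.2 and 12.6 in shSYK libraries. In PC-9 it was at 1.28, 1.81 and 1.48 against 2.96, 3.37 and 2.83, and in HCC827 at 11.0, 11.3 and 12.1 against 20.1, 19.8 and 19.8. No nc library reached a shSYK library in any line, with 2.2-fold, 2.0-fold and 1.7-fold higher levels in EBC-1, PC-9 and HCC827. The log2 differences were 0.98 (SE 0.084, limma adjusted p = 0.000264), 0.69 (SE 0.120, limma adjusted p = 0.0386) and 0.74 (SE 0.055, limma adjusted p = 0.000195). The PC-9 call was lost without nc library 3 (0.68, limma adjusted p = 0.190) or without shSYK library 1 (0.70, limma adjusted p = 0.178), 2 (0.63, limma adjusted p = 0.198) or 3 (0.73, limma adjusted p = 0.149), and with no filter on low genes (limma adjusted p = 0.123).

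CFL1 and destrin (DSTN), which are more abundant, passed in no line in the fit used throughout. DSTN did pass downward in EBC-1 with length and GC trends removed (limma adjusted p = 0.000836), and in HCC827 with quantile normalization and with voom. CFL1 was at 185.9 ± 16.9 FPKM in EBC-1 nc cells and 179.8 ± 11.1 in shSYK cells. As a share of CFL1, CFL2 and DSTN together, CFL2 went from 2.07% ± 0.21 to 4.54% ± 0.42 in EBC-1, from 0.717% ± 0.277 to 1.25% ± 0.18 in PC-9 and from 4.61% ± 0.16 to 7.85% ± 0.43 in HCC827. The nc and shSYK shares did not overlap in any of the lines.

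The profilin PFN2 (ENSG00000070087), the less abundant paralog of PFN1 in all 3 lines, went down in EBC-1 and up in HCC827. In EBC-1 it was at 13.96, 13.8 and 13.3 FPKM in nc and 7.62, 8.75 and 9.08 in shSYK libraries, 62.0% of the nc mean, and it fell by 0.63 on the log2 scale (SE 0.078, limma adjusted p = 0.000956). In HCC827 it was at 22.6, 23.3 and 25.9 against 29.9, 29.8 and 29.2, 1.24-fold (0.30, SE 0.062, limma adjusted p = 0.00873). In PC-9 the shSYK libraries were also above the nc libraries (51.6, 51.7 and 50.6 against 62.6, 69.2 and 67.5 FPKM), but the gene did not pass there (0.37, SE 0.099, limma adjusted p = 0.127). The EBC-1 effect was lower than that in HCC827 (difference -0.93, SE 0.098, limma adjusted p = 7.14e-06) and than that in PC-9 (difference -0.999, SE 0.098, limma adjusted p = 5.44e-06). PFN1 passed in no line in the fit used throughout, at 522.0 ± 46.6 FPKM in EBC-1 nc cells and 459.5 ± 24.2 in shSYK cells. It did pass in EBC-1 and HCC827 with length and GC trends removed, and in EBC-1 without nc library 2.

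**Figure D2:**
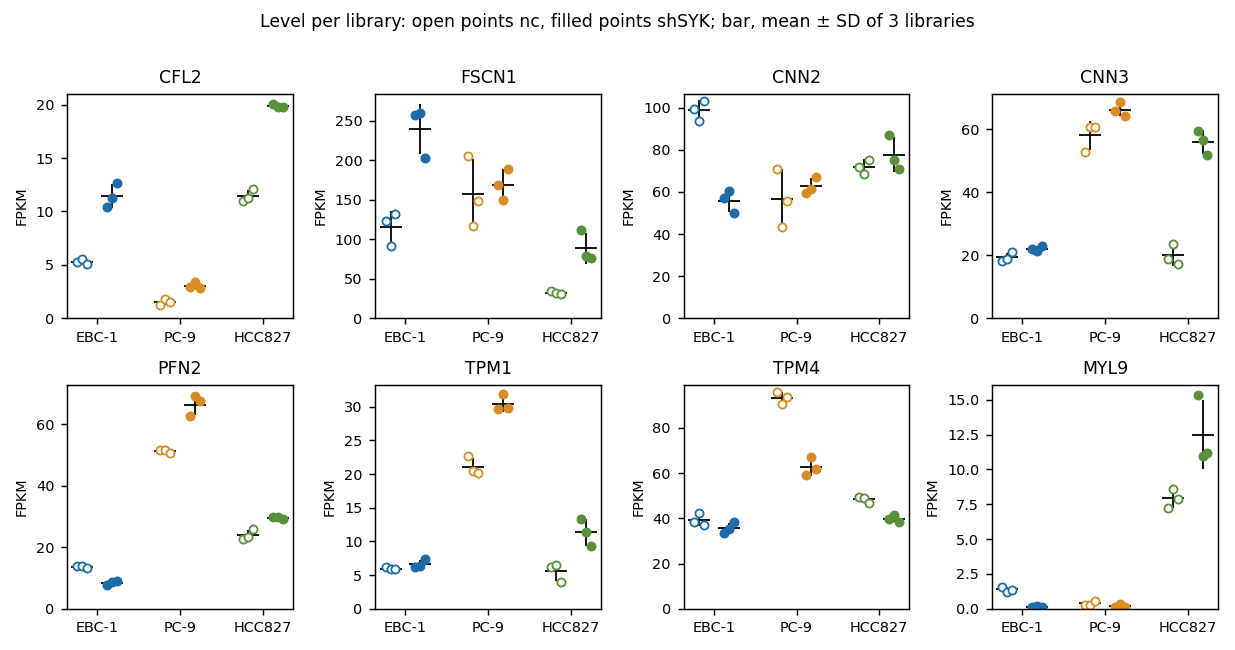
FPKM of 8 genes in every library of EBC-1, PC-9 and HCC827 (open points, nc; filled points, shSYK; horizontal and vertical bars, mean ± SD of 3 libraries; each panel has its own axis from 0). CFL2 is higher in the shSYK libraries of all 3 lines, CNN2 and PFN2 are lower in EBC-1, and CNN3 and MYL9 are higher in HCC827.

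The tropomyosins, which decorate filaments and select their partners, changed in make-up in each line, with a different leading member. In EBC-1, TPM3 rose 1.34-fold (0.40, limma adjusted p = 0.00224) and TPM2 fell, to 56.1% of nc. In HCC827, TPM1 and TPM2 rose and TPM4 fell. In PC-9, TPM4 fell and no tropomyosin rose. TPM1 in HCC827 was at 6.17, 6.57 and 3.91 FPKM in nc and 13.3, 11.3 and 9.38 in shSYK libraries, 2.04-fold (0.93, SE 0.180, limma adjusted p = 0.00664), and the groups were apart. In PC-9, TPM1 was at 22.7, 20.5 and 20.2 against 29.7, 31.9 and 29.8 FPKM, which missed the threshold (0.51, SE 0.099, limma adjusted p = 0.0510). There it passed under 8 of 17 alternatives. In EBC-1, TPM1 was at 6.14, 5.87 and 5.92 against 6.28, 6.29 and 7.37 FPKM, and its effect was lower than in HCC827 (difference -0.80, SE 0.193, limma adjusted p = 0.00774).

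TPM4, the short cytoplasmic tropomyosin, was at 95.9, 90.7 and 93.6 FPKM in PC-9 nc cells and at 59.1, 66.9 and 61.8 in shSYK cells. The groups were far apart, and the level fell by 0.57 on the log2 scale (SE 0.103, limma adjusted p = 0.0444). In HCC827, TPM4 went from 49.4, 48.9 and 46.7 to 39.7, 41.6 and 38.3 FPKM and fell by 0.27 (SE 0.054, limma adjusted p = 0.00733), while in EBC-1 its groups overlapped. The PC-9 call was lost without nc library 3 (-0.57, limma adjusted p = 0.229) or without shSYK library 1 (-0.53, limma adjusted p = 0.242), 2 (-0.62, limma adjusted p = 0.175) or 3 (-0.56, limma adjusted p = 0.229), and with no filter on low genes (limma adjusted p = 0.0796). TPM2 was the lowest tropomyosin in each line, at 2.08 ± 0.330 FPKM in EBC-1 nc cells and 1.17 ± 0.288 in shSYK cells (-0.51, SE 0.136, limma adjusted p = 0.0196), and 1.95 ± 0.251 against 2.55 ± 0.121 in HCC827 (0.27, SE 0.090, limma adjusted p = 0.0472). The EBC-1 call of TPM2 was lost without nc library 1 (-0.42, limma adjusted p = 0.0747) or shSYK library 2 (-0.40, limma adjusted p = 0.0546), and the HCC827 call on leaving out nc library 1 or 3 or any shSYK library (0.21 to 0.30, limma adjusted p 0.0804 to 0.129). With length and GC trends removed the EBC-1 difference was -0.29 (limma adjusted p = 0.138).

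As shares of the summed tropomyosin FPKM, TPM4 was lower in shSYK cells of all 3 lines with no overlap. It went from 54.4% ± 2.26 to 46.5% ± 0.64 in EBC-1, from 51.5% ± 2.24 to 39.5% ± 0.81 in PC-9 and from 34.2% ± 0.28 to 29.95% ± 0.61 in HCC827. The share that grew was TPM3 in EBC-1 (34.5% ± 1.68 to 43.3% ± 1.19), TPM1 in HCC827 (3.91% ± 0.94 to 8.49% ± 1.19) and both in PC-9 (TPM1 11.6% ± 0.33 to 19.2% ± 0.40, and TPM3 35.1% ± 2.53 to 39.2% ± 0.91). In HCC827 the TPM2 share was also higher, from 1.38% ± 0.18 to 1.92% ± 0.17. These shares are descriptions and were not tested.

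**Figure D3:**
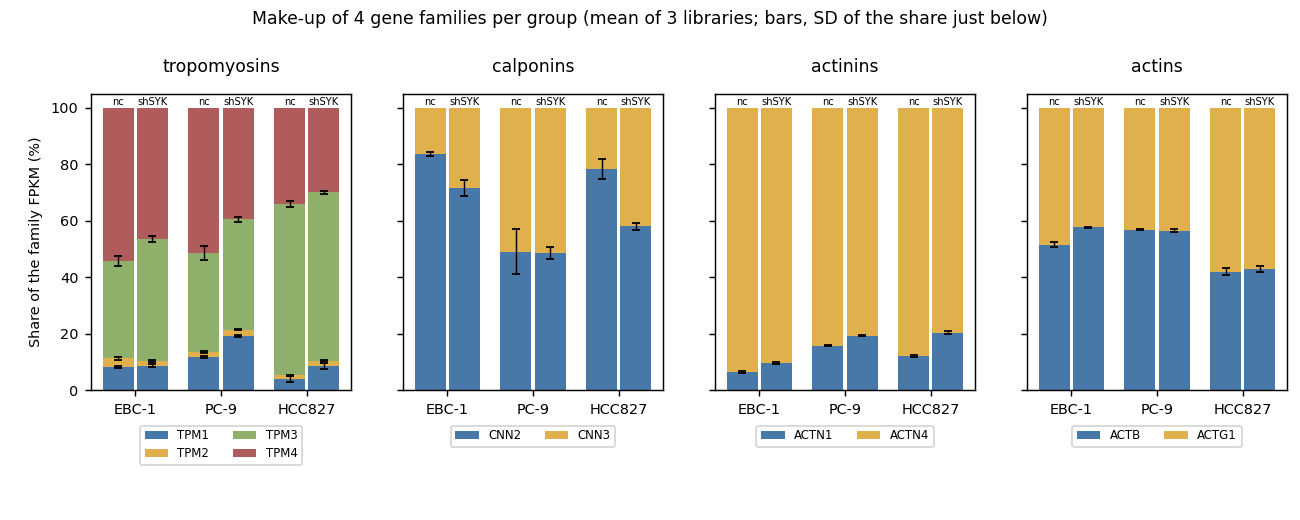
Share of each member in the summed FPKM of its family, in % on the y axis, for tropomyosins, calponins CNN2 and CNN3, actinins and actins in nc and shSYK cells (stacked bars, means of 3 libraries; error bars, SD of the share of the segment just below the bar). TPM4 and ACTN4 take smaller shares in shSYK cells of every line, and CNN3 a larger share in EBC-1 and HCC827.

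Nonmuscle myosin 2, the motor of contraction, is built from the heavy chains MYH9 or MYH10, regulatory light chains (MYL9, MYL12A, MYL12B) and the essential light chain MYL6. In EBC-1, MYH9 and MYL12A fell and none rose among 5 tested, where 21.6% of all genes fell and 23.1% rose. In HCC827, MYL9, MYL12B and MYH10 rose and none fell among 6, where 17.2% of all genes rose and 20.7% fell. None of 4 tested passed in PC-9, where 0.678% of all genes rose and 1.41% fell. MYH9 in EBC-1 was at 169.9, 150.4 and 168.7 FPKM in nc and 118.9, 115.1 and 107.9 in shSYK libraries, with no overlap, and fell by 0.51 on the log2 scale (SE 0.074, limma adjusted p = 0.00175). In PC-9 and HCC827 the MYH9 groups overlapped, and the EBC-1 effect was lower than that in PC-9 (difference -0.53, SE 0.161, limma adjusted p = 0.0308) and than that in HCC827 (difference -0.69, SE 0.161, limma adjusted p = 0.00627). The MYH9 difference from PC-9 missed the threshold under 9 of 21 alternatives. MYL12A fell to 72.4% of nc in EBC-1 (-0.46, limma adjusted p = 0.00180), and its EBC-1 effect was lower than in PC-9 (difference -0.79, SE 0.118, limma adjusted p = 0.000280) and than in HCC827 (difference -0.69, SE 0.118, limma adjusted p = 0.000575). MYL12B rose 1.23-fold in HCC827 and MYH10 1.17-fold. The MYH10 call was lost on leaving out any single library other than shSYK library 3 (0.18 to 0.25, limma adjusted p 0.0597 to 0.119) and with length and GC trends removed (0.13, limma adjusted p = 0.157).

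MYL9 (ENSG00000101335, chromosome 20, 36541484 to 36551447), a regulatory light chain abundant in smooth muscle, showed opposite patterns in EBC-1 and HCC827. In HCC827 it was at 7.26, 8.60 and 7.90 FPKM in nc and 15.3, 10.9 and 11.2 in shSYK libraries, 1.58-fold (0.58, SE 0.126, limma adjusted p = 0.00994). In EBC-1 it was at 1.59, 1.23 and 1.35 against 0.13, 0.21 and 0.10 FPKM, from 62, 44 and 45 reads against 6, 7 and 4. The mean over the 6 EBC-1 libraries was under the filter, so the gene was not tested there in the fit used throughout, and without the filter the log2 difference was -1.06 (limma adjusted p = 0.00365). In PC-9 it had 3 to 17 reads a library. The gene entered the fit of all 18 libraries only through its HCC827 levels, so no difference of effects between lines is read for it.

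Calponins, transgelins and caldesmon bind along actin filaments and are classed as markers of contractile cells, although CNN2, CNN3 and TAGLN2 are widely expressed. CNN2 (ENSG00000064666, chromosome 19, 1026581 to 1039068) was at 99.6, 93.8 and 103.1 FPKM in EBC-1 nc cells and at 57.4, 60.7 and 49.8 in shSYK cells. The groups were far apart, at 56.6% of nc, and CNN2 fell by 0.81 on the log2 scale (SE 0.087, limma adjusted p = 0.000556). In PC-9 and HCC827 its groups overlapped, and the EBC-1 effect was lower than that in PC-9 (difference -0.98, SE 0.190, limma adjusted p = 0.00198) and than that in HCC827 (difference -0.92, SE 0.190, limma adjusted p = 0.00260). CNN3 (ENSG00000117519, chromosome 1, 94896949 to 94927278) was the gene of the set with the largest rise in HCC827, from 18.9, 23.7 and 17.3 to 59.6, 56.7 and 52.0 FPKM, 2.81-fold (1.46, SE 0.112, limma adjusted p = 0.000220). In EBC-1 it was at 18.3, 18.8 and 21.1 against 21.8, 21.5 and 23.0 FPKM, and in PC-9 at 52.9, 60.7 and 60.8 against 65.9, 68.6 and 64.4. The shSYK libraries were above the nc libraries there as well, but neither passed, and the HCC827 effect was larger, with differences of -1.27 (SE 0.138) for EBC-1 minus HCC827 (limma adjusted p = 9.59e-06) and -1.27 (SE 0.138) for PC-9 minus HCC827 (limma adjusted p = 3.46e-05).

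CNN3 took a larger share of the calponin FPKM in EBC-1, from 16.4% ± 0.77 to 28.4% ± 2.80, as CNN2 fell, and in HCC827, from 21.7% ± 3.62 to 41.9% ± 1.23, as CNN3 rose. In PC-9 it was 51.0% ± 7.92 and 51.4% ± 2.09. CALD1, which encodes caldesmon, was at 6.84, 6.98 and 6.88 FPKM in HCC827 nc cells and at 13.3, 11.0 and 11.4 in shSYK cells, 1.72-fold (0.70, SE 0.074, limma adjusted p = 0.000621). In EBC-1 it rose 1.45-fold (0.46, SE 0.135, limma adjusted p = 0.0262), a call lost without nc library 1 (0.41, limma adjusted p = 0.0876), nc library 3 (0.37, limma adjusted p = 0.0845), shSYK library 1 (0.47, limma adjusted p = 0.0636) or shSYK library 3 (0.41, limma adjusted p = 0.0801), and with length and GC trends removed (0.20, limma adjusted p = 0.108). TAGLN2, the abundant transgelin, fell to 77.9% of nc in HCC827 (-0.36, limma adjusted p = 0.00585), but with length and GC trends removed the difference was -0.15 (limma adjusted p = 0.0579). TAGLN, a classic smooth muscle gene, stayed between 0.909 and 3.09 FPKM in every library and passed in no line.

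Fascin, which bundles filaments in protrusions, rose in EBC-1 and HCC827. FSCN1 (ENSG00000075618, chromosome 7, 5592823 to 5606655) was at 122.4, 91.5 and 131.7 FPKM in EBC-1 nc cells and at 256.9, 259.5 and 203.1 in shSYK cells, 2.08-fold (1.06, SE 0.153, limma adjusted p = 0.00171). In HCC827 it was at 34.2, 32.3 and 30.9 against 111.4, 78.2 and 76.8 FPKM, 2.74-fold (1.40, SE 0.137, limma adjusted p = 0.000490). The groups were apart in both lines. In PC-9 they overlapped, at 205.7, 117.2 and 148.0 against 168.8, 149.8 and 188.9 FPKM, and the PC-9 effect was lower than that in HCC827 (difference -1.26, SE 0.271, limma adjusted p = 0.00813), while the EBC-1 effect exceeded that in PC-9 by 0.92 (SE 0.271, limma adjusted p = 0.0258). The difference between EBC-1 and PC-9 missed the threshold under 5 of 21 alternatives.

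The actinins, which crosslink filaments at adhesions and in the cell cortex, went in opposite directions. ACTN1 rose and ACTN4 fell in both EBC-1 and HCC827. In HCC827, ACTN1 was at 33.5, 30.8 and 30.8 FPKM in nc and 51.4, 46.9 and 42.0 in shSYK libraries, 1.48-fold (0.54, SE 0.080, limma adjusted p = 0.00233), while ACTN4 fell from 232.4 ± 5.30 to 183.9 ± 12.3 FPKM (-0.34, limma adjusted p = 0.00585). In EBC-1, ACTN1 rose 1.26-fold (0.31, limma adjusted p = 0.0210) and ACTN4 fell to 80.9% of nc (-0.30, limma adjusted p = 0.0279). The share of ACTN1 in both actinins was higher in every shSYK library than in any nc library of its line, from 6.41% ± 0.47 to 9.58% ± 0.27 in EBC-1, from 15.7% ± 0.08 to 19.2% ± 0.22 in PC-9 and from 12% ± 0.41 to 20.3% ± 0.55 in HCC827. In EBC-1 the ACTN1 call was lost without nc library 1, shSYK library 1 or shSYK library 2 (0.26 to 0.30, limma adjusted p 0.0726 to 0.0747), and the ACTN4 call without any library other than nc library 2 (-0.24 to -0.33, limma adjusted p 0.0501 to 0.103). The ACTN1 call was also lost there with a length trend removed (0.18, limma adjusted p = 0.159), and the ACTN4 call with rescaling to a common FPKM total (-0.17, limma adjusted p = 0.0922), quantile normalization (-0.16, limma adjusted p = 0.0752) or length and GC trends removed (-0.11, limma adjusted p = 0.0997). In HCC827 the ACTN4 difference with length and GC trends removed was -0.16 (limma adjusted p = 0.0654).

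FLNA, the filamin that links filaments into orthogonal networks, was at 621.2, 552.8 and 634.2 FPKM in EBC-1 nc cells and at 426.1, 411.7 and 364.7 in shSYK cells. It did not overlap between groups and fell by 0.59 on the log2 scale (SE 0.085, limma adjusted p = 0.00176). In PC-9 and HCC827 the FLNA groups overlapped, and the EBC-1 effect was lower than that in PC-9 (difference -0.59, SE 0.198, limma adjusted p = 0.0478), a difference that missed the threshold under 14 of 21 alternatives (-0.79 to -0.30). The FLNA difference between EBC-1 and HCC827 did not pass (-0.47, SE 0.198, limma adjusted p = 0.106). LIMA1, which stabilises filaments, rose 1.39-fold in both EBC-1 (0.44, limma adjusted p = 0.00780) and HCC827 (0.46, limma adjusted p = 0.000573). In PC-9 its shSYK libraries were also above the nc libraries, at 27.9, 31.7 and 29.7 against 17.0, 24.0 and 21.7 FPKM, without passing (0.50, limma adjusted p = 0.136). Of the adhesion proteins, VCL rose 1.24-fold and ZYX 1.26-fold in HCC827, and for VCL the EBC-1 effect was lower than that in HCC827 (difference -0.43, SE 0.083, limma adjusted p = 0.00157). The ZYX call was lost without nc library 1, 2 or 3 or without shSYK library 2 (0.29 to 0.37, limma adjusted p 0.0577 to 0.112).

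Of the linkers between filaments and the membrane, moesin (MSN) rose 1.35-fold in HCC827, from 93.6 ± 2.54 to 126.5 ± 12.2 FPKM (0.43, SE 0.077, limma adjusted p = 0.00502), and ezrin (EZR) passed in no line. The MSN libraries were also apart in EBC-1 (97.6 ± 0.917 against 110.8 ± 6.06 FPKM) and PC-9 (57.8 ± 8.20 against 80.0 ± 4.92), with limma adjusted p of 0.0515 and 0.137.

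In the ROCK pathway group, both kinases rose in EBC-1 and RHOB fell in EBC-1 and HCC827. ROCK1 in EBC-1 was at 4.54, 7.02 and 4.34 FPKM in nc and 8.92, 8.87 and 9.72 in shSYK libraries, 1.73-fold (0.72, SE 0.152, limma adjusted p = 0.00782), and in HCC827 and PC-9 its groups overlapped. The difference of the ROCK1 effects did not pass, however, for EBC-1 minus HCC827 (0.71, SE 0.279, limma adjusted p = 0.0814) or EBC-1 minus PC-9 (0.68, SE 0.279, limma adjusted p = 0.0979). ROCK2 in EBC-1 was at 1.63, 2.57 and 1.72 against 3.13, 3.03 and 3.53 FPKM, 1.64-fold (0.52, SE 0.131, limma adjusted p = 0.0158), and in HCC827 it rose 1.40-fold (0.39, limma adjusted p = 0.00501). In the fit of all 18 libraries ROCK2 passed in neither line (limma adjusted p = 0.0849 in EBC-1 and 0.233 in HCC827). That fit takes a single variance for each gene over all 6 groups. The spread of ROCK2 between the PC-9 nc libraries (1.48, 5.71 and 3.20 FPKM) therefore enters both of these values. For ROCK2 in EBC-1 the difference was -0.015 once trends with gene length and GC content were removed, and for ROCK1 it was 0.18 (limma adjusted p = 0.0772). The ROCK2 call in EBC-1 was also lost without nc library 1, nc library 3 or shSYK library 3 (0.44 to 0.47, limma adjusted p 0.0538 to 0.0561). RHOB, a small GTPase induced by stress and growth factors, was at 25.4, 25.1 and 28.8 FPKM in EBC-1 nc cells and 17.3, 19.4 and 17.3 in shSYK cells, 68.2% of nc, and fell by 0.53 (SE 0.082, limma adjusted p = 0.00228). In HCC827 it fell by 0.35 (SE 0.082, limma adjusted p = 0.0137), a call lost without shSYK library 2 (-0.32, limma adjusted p = 0.0507), in the fit of all 18 libraries (limma adjusted p = 0.0956) and with length and GC trends removed (-0.15, limma adjusted p = 0.197). RHOA passed in no line.

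Set side by side, 8 genes rose in both EBC-1 and HCC827, or 8 of the 11 rises in EBC-1 and 8 of the 19 in HCC827. Over all genes tested in both lines, 924 rose in both, or 34.4% of those rising in EBC-1 and 50.5% of those rising in HCC827. The 8 were ACTN1, ARPC3, ACTR2, CFL2, CALD1, FSCN1, LIMA1 and ROCK2. Of these, only CFL2, FSCN1 and LIMA1 kept the call in both lines under every alternative run. ACTN1, CALD1 and ROCK2 lost it under some alternatives in EBC-1, and ARPC3, ACTR2 and ROCK2 did so in HCC827. ACTN4 and RHOB fell in both, or 2 of the 9 falls in EBC-1 and 2 of the 4 in HCC827, although neither fall in HCC827 passed with length and GC trends removed. Over all genes tested in both lines, 911 fell in both, or 39.6% of those falling in EBC-1 and 40.7% of those falling in HCC827. PFN2 and TPM2 fell in EBC-1 and rose in HCC827. Another 11 genes tested in both passed in neither. Differences of effects were tested in a fit of all 18 libraries, where the spread of the PC-9 libraries enters the variance of a gene in every comparison. There, 11 of 42 genes differed between EBC-1 and HCC827, 2 with the higher effect in EBC-1 and 9 with the lower, beside 21.8% of all genes. Between EBC-1 and PC-9 it was 15 of 42 (5 higher and 10 lower in EBC-1), beside 19.8%. With libraries rescaled to a common FPKM total, which moved the median difference of all genes to 0.13, 9 were higher and 7 lower. The count of 15 was 9 without EBC-1 shSYK library 2 or without PC-9 nc library 3, and 24 without PC-9 nc library 1. Between PC-9 and HCC827 it was 4 of 42, beside 7.50%, and 8 without PC-9 nc library 1. Each of these counts includes MYL9, and over the genes above the filter in both lines compared they were 10 of 41, 14 of 39 and 3 of 39.

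**Figure D4:**
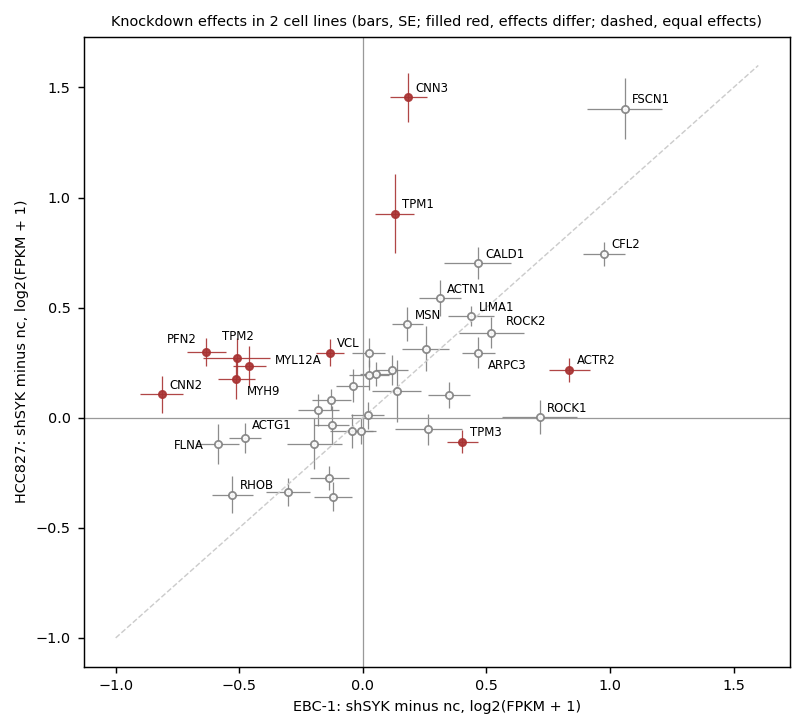
Difference between shSYK and nc cells in EBC-1 (x axis) and HCC827 (y axis), both on the log2(FPKM + 1) scale, for the 41 genes tested in both lines (points, limma estimates; bars, SE; filled red, the effects differ between the lines; dashed line, equal effects). FSCN1 and CFL2 are high on both axes, CNN3 and TPM1 on the HCC827 axis, and CNN2 and PFN2 lie left of 0 in EBC-1.

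A wider list of 75 actin regulators was read in the same fits. In EBC-1, 26 of 66 tested rose and 14 fell, where 23.1% and 21.6% of all genes did. That split depended on the processing. With libraries rescaled to a common FPKM total, 34 rose and 9 fell, beside 4019 and 1901 of 12430 genes in all. With length and GC trends removed, 19 rose and 18 fell, beside 2420 and 2872 of 12366. In HCC827, 22 of 69 rose and 12 fell, where 17.2% and 20.7% of all genes did. In PC-9, ARPC5 alone fell among 67 and none rose, where 1.41% of all genes fell and 0.678% rose. FLNC, the filamin of muscle, went opposite ways, from 45.04 ± 1.83 to 20.6 ± 1.14 FPKM in EBC-1 (-1.10, limma adjusted p = 7.72e-05) and from 69.7 ± 5.54 to 138.2 ± 15.9 in HCC827 (0.97, limma adjusted p = 0.000526), and the difference between these effects was not tested. The formins and Ena/VASP proteins, which elongate straight filaments, had 6 of 8 rising in EBC-1, beside 23.1% of all genes, and 3 of 8 in HCC827, beside 17.2%, with 1 falling in each. On the log2(FPKM + 1) scale, the largest rises in EBC-1 were of RDX, the third of the ezrin family (0.94, limma adjusted p = 0.000980), TWF1, which binds monomers (0.80, limma adjusted p = 0.00224), and the bundling protein PLS3 (0.73, limma adjusted p = 0.00242). Beside FLNC, the largest falls there on this scale were of ARHGEF2, an activator of RhoA (-0.67, limma adjusted p = 0.000477), and TMSB4X, which encodes the monomer-binding peptide thymosin beta 4 (-0.50, limma adjusted p = 0.00131, and -0.10 with limma adjusted p = 0.172 under quantile normalization). In HCC827, CAP2, which recycles monomers, rose by 1.02 (limma adjusted p = 0.000464) and the GTPase-activating protein ARHGAP29 by 0.92 (limma adjusted p = 0.000865), and the cofilin phosphatase SSH3 fell by 0.55 (limma adjusted p = 0.00496).

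SRF and its coactivators gave falls in EBC-1 and HCC827. In EBC-1, SRF fell from 35.0, 33.0 and 35.99 FPKM to 25.6, 26.9 and 22.8 (-0.45, SE 0.079, limma adjusted p = 0.00365) and MKL1 from 5.94 ± 0.27 to 4.53 ± 0.04 (-0.33, limma adjusted p = 0.00661). In HCC827, MKL2 fell from 2.45 ± 0.18 to 1.47 ± 0.18 FPKM (-0.49, limma adjusted p = 0.00627), while SRF was at 21.6 ± 1.21 and 21.8 ± 1.35 (0.011, limma adjusted p = 0.917, and 0.21 with limma adjusted p = 0.0361 once length and GC trends were removed). MKL2 in EBC-1 did not pass (0.21, limma adjusted p = 0.134), but did with voom and without nc library 2. In PC-9 none of the 3 passed, although MKL2 did so downward with length and GC trends removed (limma adjusted p = 0.0246). The 6 genes with a CArG box in the stretches printed above did not share a direction. In EBC-1, ACTG1, CNN2 and FLNA fell, ACTN1 and ROCK2 rose, and TPM4 did not pass. In HCC827, ACTN1 and ROCK2 rose, TPM4 fell, and ACTG1, CNN2 and FLNA did not pass.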

How the data were processed

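RNA was extracted with Trizol and libraries were sequenced on an Illumina system. The authors deposited FPKM values in 3 tables, 1 for each cell line, and the submitters' processing notes name HISAT2 and CASAVA and both the GRCh37 and GRCh38 builds. The gene coordinates in the tables are those of GRCh38. The counting program, the versions and the annotation are not given in the sources used here. Multiplied by gene length, the FPKM values of a library were multiples of a constant, 100% of them lying within 0.01 of an integer. The reads behind each gene were recovered in this way and served for depths and as an alternative input. These read numbers cover counting error only. Groups were taken from the sample labels and no library was left out.

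Within each line, shSYK was compared with nc in R 4.3.3 with limma 3.58.1 (lmFit and eBayes with a variance trend) on log2(FPKM + 1), for genes averaging 1 FPKM or more in the line, two-sided, with Benjamini-Hochberg adjustment over all genes tested and a threshold of 0.05. Differences of effects between lines were contrasts in a fit of all 18 libraries, with a single variance for each gene over the 6 groups. Dividing by length and by the depth of a library makes a value depend on the other genes of that library. Shares within a family and motif matches are descriptions. Figures were drawn with matplotlib 3.10.9. The fits were also run on simulated libraries with a single dispersion per line. Libraries of a group shared the same expected levels there, unlike the PC-9 nc libraries, so that run does not vouch for PC-9.

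The 43 genes, their roles, the regulator list and the markers were chosen with earlier results of these data known. Every gene past the threshold was named, and full values were given for up to 10 genes a line with a log2 difference of at least 0.5 and no overlap, and for the same genes in the other lines where effects differed. Of the regulators, the 3 largest rises and falls past the threshold without overlap in a line were named, with SRF, its coactivators and the ARP2/3 subunits.

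The settings varied were the pseudocount (0.1), the filter (none, or a mean of 5 FPKM), TPM rescaling, quantile normalization, voom, no variance trend, the fit of all 18 libraries, a replicate block, removal of a length trend and each library left out. Removal of length and GC trends together was chosen after seeing the data. Shares within a family were also taken from reads without division by gene length. The difference between shSYK and nc then moved by at least 1 SD of the libraries for 19 shares and by less for 41. No direction turned round where the groups were apart.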

Additional observations from a re-analysis of the deposited data

Results flagged for a closer look

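The genes below were singled out because the effect of the knockdown differed between 2 cell lines in a direct limma test of that difference (adjusted p under 0.05, 3 libraries in each group). Values are differences of the shSYK minus nc effects on the log2(FPKM + 1) scale, and the comparisons share libraries of a line with each other. Genes under the filter of 1 FPKM in either line compared are left out.

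Taking EBC-1 minus HCC827, the effect was lower in EBC-1 for 8 genes, with -1.27 for CNN3, -0.93 for PFN2, -0.92 for CNN2, -0.80 for TPM1, -0.78 for TPM2, -0.69 for MYL12A, -0.69 for MYH9, -0.43 for VCL. It was higher in EBC-1 for 2 genes, with 0.51 for TPM3, 0.62 for ACTR2. All 10 stayed past the threshold under every alternative run.

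Taking EBC-1 minus PC-9, the effect was lower in EBC-1 for 9 genes, with -0.999 for PFN2, -0.98 for CNN2, -0.79 for MYL12A, -0.61 for ACTG1, -0.59 for FLNA, -0.55 for TPM2, -0.53 for MYH9, -0.37 for VCL, -0.30 for DSTN. It was higher in EBC-1 for 5 genes, with 0.30 for ARPC3, 0.43 for TPM4, 0.44 for TPM3, 0.71 for ACTR2, 0.92 for FSCN1. ACTR2, PFN2, TPM4, MYL12A and CNN2 stayed past the threshold under every alternative run, and the other 9 did not, with FLNA missing it under 14 of 21 alternatives, ARPC3 under 16 and DSTN under 10. For ACTG1 the difference ran from -0.79 to 0.024 over the alternatives. The PC-9 nc libraries spread widely for several of these genes.

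Taking PC-9 minus HCC827, the effect was lower in PC-9 for 2 genes, with -1.27 for CNN3 and -1.26 for FSCN1, which stayed past the threshold under every alternative run. It was higher in PC-9 for TAGLN2, with 0.61, which missed the threshold under 11 of 21 alternatives.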

How the results depend on the processing

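Of the calls in the set, 12 of 20 in EBC-1, 13 of 23 in HCC827 and 0 of 2 in PC-9 held under every alternative run. Of the genes tested and not past the threshold, 13 of 21 in EBC-1, 9 of 19 in HCC827 and 8 of 37 in PC-9 passed under some alternative. Called genes kept their direction except ACTG1 in EBC-1 under quantile normalization (0.058) and ACTR3 (-0.067) and ROCK2 (-0.015) in EBC-1 with length and GC trends removed. The cause was not tested. Without a filter on low genes, ACTN1, ACTN4, TPM2, CALD1 and ROCK2 lost their calls in EBC-1. The number of genes changed in EBC-1 was 3579 where a mean of 5 FPKM was required, which tests fewer genes. In PC-9, 253 genes changed in all, against 47 with no filter, 491 with TPM rescaling, 505 with quantile normalization, 480 with voom, 1511 in the fit of all 18 libraries, 947 with length and GC trends removed, and 7 to 621 with a library left out. Genes of the set rising in PC-9 numbered 0 with no filter, 2 with TPM rescaling, 3 with quantile normalization, 3 with voom, 8 in the fit of all 18 libraries, 6 with length and GC trends removed and 0 to 3 with a library left out. Those falling there numbered 0 with no filter and 0 to 1 with a library left out. The set had 17 rises in EBC-1 with TPM rescaling and 17 with voom, and 2 falls in HCC827 with length and GC trends removed, which also gave 17 genes differing between EBC-1 and HCC827. TPM rescaling turned the split over all genes from 2876 up and 2686 down to 4019 and 1901 in EBC-1, and from 2066 and 2488 to 2482 and 1905 in HCC827. With a library left out, genes of the set differing in effect numbered 9 to 24 for EBC-1 against PC-9 and 3 to 8 for PC-9 against HCC827.

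Same-numbered nc and shSYK libraries did not regularly deviate together (correlations of -0.22 to 0.03 in EBC-1, -0.12 to 0.33 in PC-9 and 0.00 to 0.06 in HCC827), and not every library correlated best with its own number. The value of 0.33 was for libraries 2 of PC-9. With the replicate block, 9 genes of the set rose and 8 fell in EBC-1, 17 rose and 4 fell in HCC827, and 0 rose and 0 fell in PC-9 (6 of the set had an unadjusted limma p under 0.05 there).

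Depth limited CNN1, with at most 3 reads in a library, and MYL9 in EBC-1 shSYK cells, with 4 to 7 reads.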
